A study of Mus musculus with 8 samples.

Results

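miR-221 and miR-222 are a pair of microRNAs (miRNAs) made from neighbouring hairpins, and their 4 mature arms, miR-221-3p, miR-221-5p, miR-222-3p and miR-222-5p, were followed here in the RNA-induced silencing complex (RISC) of mouse brain. Reads were taken as members when the name given to them in the sequence table was one of these 4. This held for 573 of 47204 distinct read sequences, namely 218 of miR-221-3p, 10 of miR-221-5p, 336 of miR-222-3p and 9 of miR-222-5p, and for 4 of 895 miRNA names. The 8 libraries came from cortex and hippocampus combined of 4 5XFADtg/Rubicon het mice and 4 5XFADtg/Rubicon ko mice. All 8 mice carried the 5XFAD transgene, which is driven from the neuronal Thy1 promoter and makes the mice a model of amyloid deposition, so the het mice are not healthy controls. They kept 1 working copy of Rubicon, a gene that holds back autophagy, and the ko mice had none. The study's methods give female mice of 6 or 8 months on a mixed C57BL/6J/SJL background, while its main text speaks of 6 months and of 3 het mice for this comparison. The labels used here hold 4 het libraries and no age. Their titles give a genotype and a replicate number, and each library was taken as a separate mouse. Since Rubicon mRNA was not measured, the genotypes rest on the labels. A GW182 peptide was used to capture Argonaute proteins, which carry the guide strand, so the values are RISC-bound RNA and not total RNA. Since whole tissue was lysed, fewer cells of a type and less RNA per cell cannot be told apart.

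A miRNA hairpin is cut into a duplex, of which 1 strand, or arm, is usually kept as the guide and the other is discarded. The guide finds its mRNA targets mainly through its seed, the bases from position 2 to position 8 at the 5′ end, so miRNAs with the same seed form a family with overlapping targets. miR-221 and miR-222 are such a family on the X chromosome, best known for repressing the cell cycle inhibitor Cdkn1b and the receptor Kit and for their activity in vessel walls and in proliferating cells.

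The RefSeq mature sequences (GRCm38.p6, minus strand of chromosome X) are shown because the shared start and the different remainder of the 3p arms are the base of all that follows. Capitals mark the seed, bases 2 to 8:
mmu-miR-221-3p: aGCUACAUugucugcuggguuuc
mmu-miR-222-3p: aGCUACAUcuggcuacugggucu
mmu-miR-221-5p: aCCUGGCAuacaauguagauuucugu
The 3p arms are identical over their first 8 bases and, without gaps, at 11 of 23 positions. miR-221-3p lies at chrX:19146307-19146329, miR-221-5p at chrX:19146344-19146369 and miR-222-3p at chrX:19146901-19146923. miR-222-5p is named only, as the RefSeq table used here has no mature entry for it, and its reads are printed further on.

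Both hairpins, in which capitals mark the mature arms that RefSeq lists, show where the reads below were placed:
Mir221: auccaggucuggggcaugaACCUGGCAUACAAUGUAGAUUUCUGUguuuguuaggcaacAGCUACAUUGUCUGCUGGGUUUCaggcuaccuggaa
Mir222: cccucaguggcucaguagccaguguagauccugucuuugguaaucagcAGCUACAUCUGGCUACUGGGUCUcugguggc
Mir221 covers chrX:19146294-19146388 and Mir222 covers chrX:19146893-19146971, with 504 bases between them. No other gene of the GENCODE M21 annotation overlapped either hairpin. The nearest was Gm14636, a processed transcript on the same strand, 10010 bases from Mir222. On the other side the nearest was the pseudogene Gm5383, 203066 bases from Mir221.

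Library depth ran from 509839 reads in het replicate 1 to 19878054 reads in ko replicate 2, and the 2 deepest libraries were both ko. The unit is CPM, reads per 1000000 reads of a library. The level of 3 reads, used as the floor of detection, was 5.79 CPM in the shallowest library, het replicate 1, and 0.151 CPM in the deepest, ko replicate 2. The tissue was checked by its miRNAs: all 10 miRNAs of a neuronal list were detected, with a summed level of 204300 to 317300 CPM per library.

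Both 3p arms were abundant guides. miR-222-3p ranked 18 and miR-221-3p ranked 27 among the 895 miRNAs, at 12394 ± 2741 and 9753 ± 3476 CPM (mean ± SD, n = 8). The 5p arms were rare, at 26.2 ± 20.04 CPM for miR-222-5p (rank 392) and 12.2 ± 6.45 CPM for miR-221-5p (rank 452). The 4 arms together made up 2.22% ± 0.509 of a library, from 1.70% to 2.91%, and nearly all of it was 3p.

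miR-221-3p was at 9022, 5631, 6643 and 14127 CPM in het replicates 1 to 4 and at 15069, 7351, 11503 and 8679 CPM in ko replicates 1 to 4. The genotypes overlapped, with het replicate 4 and ko replicate 1 highest and het replicate 2 lowest. miR-222-3p was at 10027, 11305, 13988 and 14544 CPM in het and at 11512, 10753, 17555 and 9470 CPM in ko. Here ko replicates 3 and 4 were the highest and the lowest of all 8, so the het values lay within the range of the ko values. miR-222-3p was the steadier arm, with a highest library 1.85 times its lowest against 2.68 times for miR-221-3p.

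miR-221-5p was at 7.72, 13.8, 18.6 and 20.3 CPM in het and at 15.3, 14.01, 1.72 and 5.88 CPM in ko. The libraries at 7.72 and 1.72 CPM held only 4 reads of it each, and ko replicate 4 held 6. miR-222-5p was at 65.6, 4.13, 17.1 and 18.02 CPM in het and at 19.8, 18.5, 47.7 and 18.6 CPM in ko. Its highest and its lowest library were both het, from 34 and 6 reads. With 535 reads of miR-221-5p and 787 of miR-222-5p over all libraries, against 368065 of miR-221-3p and 451554 of miR-222-3p, the 5p values carry a large counting error.

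**Figure D1:**
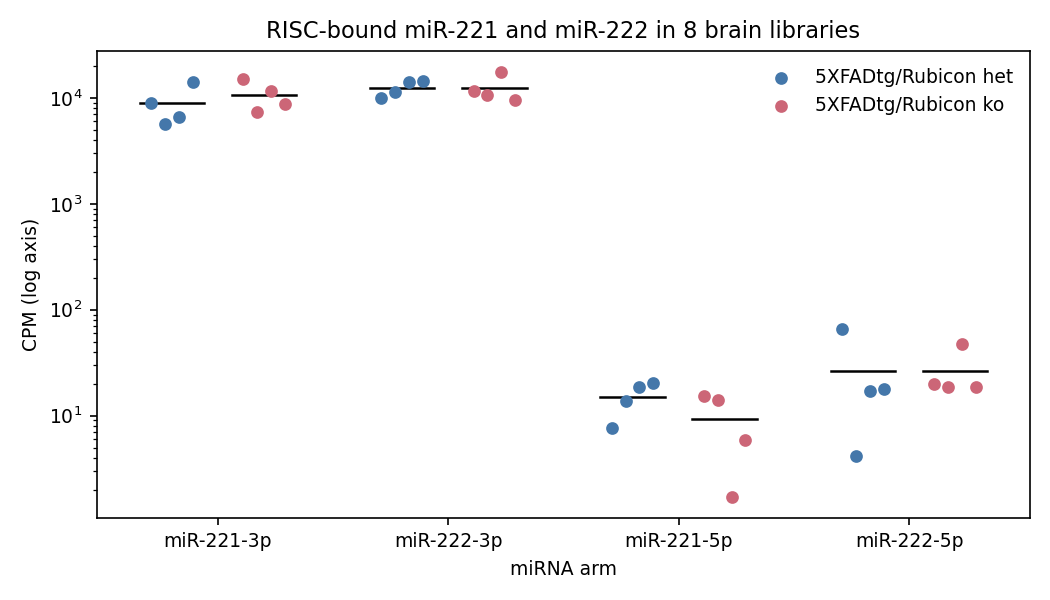
Level of each miR-221 and miR-222 arm in CPM (log axis), with 1 point per library, blue for 5XFADtg/Rubicon het and red for 5XFADtg/Rubicon ko (n = 4 each), and a bar at each group mean. The 3p arms sit between 5631 and 17555 CPM and the 5p arms between 1.72 and 65.6 CPM, and the genotypes overlap in all 4.

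To ask whether the RISC-bound level of these miRNAs differed between genotypes, ko was compared with het in a limma fit over the 463 miRNAs whose mean reached 10 CPM. Without total RNA, loading and expression cannot be told apart. Of the 4 arms 0 passed at an adjusted p under 0.05 and 0 did so before adjustment, while 1.3% of all miRNAs tested passed with adjustment and 7.34% without. edgeR and DESeq2 on the recovered reads also called 0 of the 4. miR-221-3p averaged 8856 ± 3791 CPM over the het and 10650 ± 3417 CPM over the ko libraries (n = 4 each). Its log2 fold change was 0.30 (SE 0.32, 95% interval -0.39 to 0.99, limma adjusted p = 0.975), and 0.12 to 0.56 on leaving out 1 library. miR-222-3p averaged 12466 ± 2155 CPM over the het and 12322 ± 3589 CPM over the ko libraries, and its log2 fold change was -0.04 (SE 0.25, 95% interval -0.58 to 0.49, limma adjusted p = 0.988). The sign for miR-222-3p turned, to 0.18, when each library was centred on its median.

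For the discarded arms the intervals were wider. miR-221-5p averaged 15.1 ± 5.64 CPM over the het and 9.22 ± 6.504 CPM over the ko libraries, with a log2 fold change of -0.89 (SE 0.64, 95% interval -2.27 to 0.49, limma adjusted p = 0.837). It was -0.36 without ko replicate 3 and -1.82 without the 2 deepest libraries (limma adjusted p = 0.944 and 0.473). miR-222-5p had the same mean in both genotypes, 26.2 ± 27.04 CPM with an intact copy of Rubicon and 26.2 ± 14.4 CPM without. Its log2 fold change, which weights libraries on a log scale, was 0.43 (SE 0.66, 95% interval -0.99 to 1.86, limma adjusted p = 0.975), and it was -0.19 without het replicate 2 and 1.05 without het replicate 1. Fold changes are of log2(CPM + 1), which understates the change of low miRNAs, and the median over all miRNAs tested was -0.09.

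**Figure D2:**
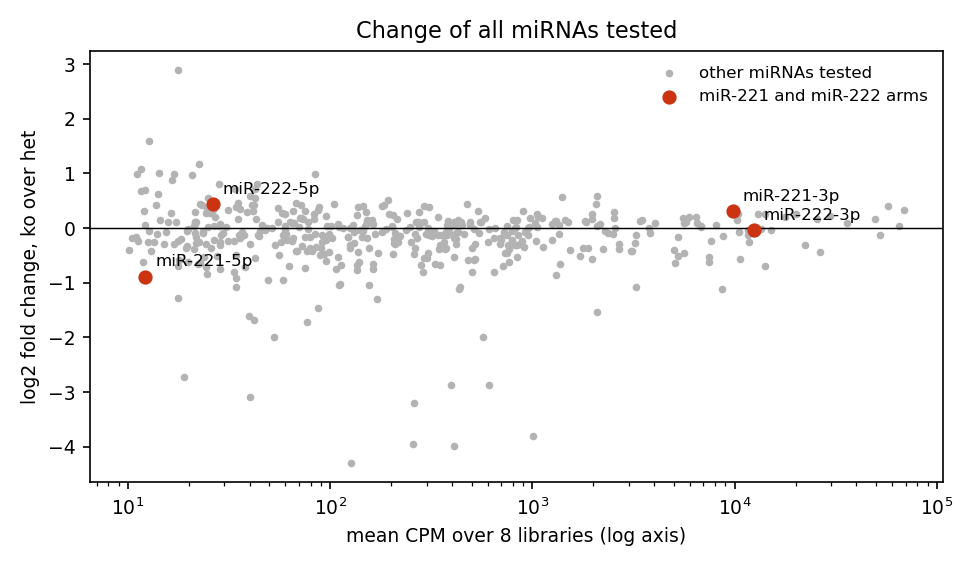
Log2 fold change of ko over het against the mean level in CPM (log axis) for the 463 miRNAs tested, grey points, with the 4 arms of miR-221 and miR-222 in red. The 3p arms, at 0.30 and -0.04, lie in the dense band around 0 and the 5p arms, at -0.89 and 0.43, lie where low miRNAs scatter widely.

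The 3p arms of the neighbouring hairpins were set against each other within each library. miR-221-3p made up 47.4%, 33.2%, 32.2% and 49.3% of the reads of both 3p arms in het replicates 1 to 4 and 56.7%, 40.6%, 39.6% and 47.8% in ko replicates 1 to 4. No 95% Wilson interval, which covers counting error only, was wider than 1.97 percentage points. Whether the different sequences of both arms are ligated and read equally well was not tested. ko replicate 1 was the only library of the 8 with more miR-221-3p than miR-222-3p reads. The ratio of miR-221-3p to miR-222-3p ran from 0.475 to 1.31. Its log2 averaged -0.57 ± 0.55 for the het and -0.22 ± 0.46 for the ko mice (exact two-sided permutation p = 0.429, n = 4 each), and groups of this size cannot give a p below 0.0286. The difference of 0.34 was 0.14 without ko replicate 1 and 0.52 without het replicate 4. Across all 8 libraries the log2 ratio was -0.40 ± 0.50 and was below 0 in 7 of 8 (exact sign-flip test p = 0.0703, adjusted p = 0.0984 over 7 contrasts between the arms). Without ko replicate 1, the one library of the opposite sign, it was -0.51 with an adjusted p of 0.0273 in the same exact test, the p of which is then the smallest possible. Without any other single library the adjusted p was 0.109 to 0.197.

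**Figure D3:**
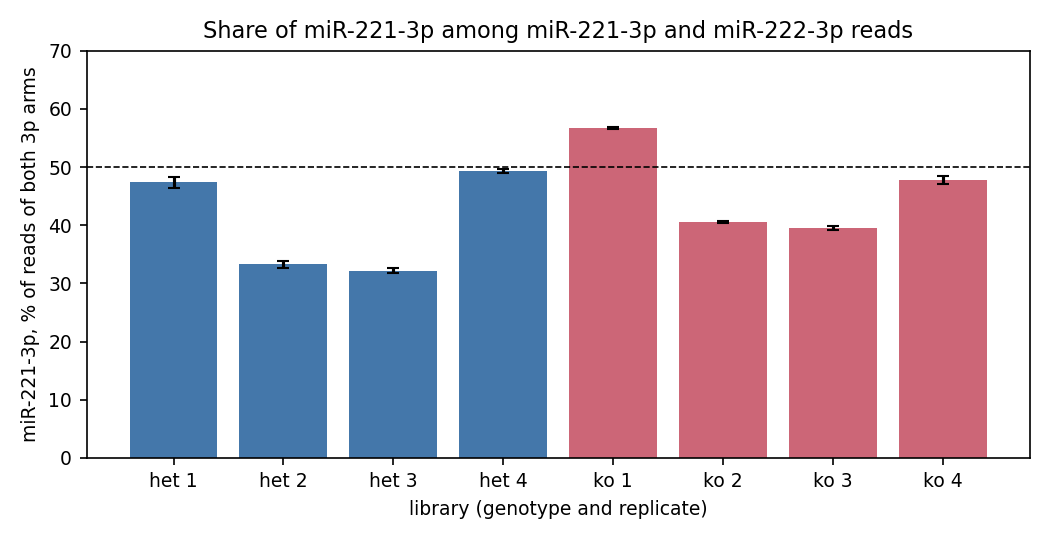
Share of miR-221-3p among the reads of both 3p arms, in percent, 1 bar per library, blue for het and red for ko, with 95% Wilson intervals and a dashed line at equal shares. The bars run from 32.2% to 56.7% and only ko replicate 1 is above the line.

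As a description over the 8 libraries, the log2 levels of miR-221-3p and miR-222-3p had a Pearson correlation of 0.32 (Spearman 0.33). These libraries share a scaling to a fixed total and differ in depth. Among 462 other miRNAs, miR-222-3p stood at place 113 by correlation with miR-221-3p, and miR-221-3p at place 175 by correlation with miR-222-3p. The miRNAs most like miR-221-3p were miR-99b-3p and miR-346-5p, with a Pearson correlation of 0.83 each, followed by miR-700-3p (0.81), let-7d-3p (0.80) and miR-6540-5p (0.80). Those most like miR-222-3p were miR-666-5p (0.90), miR-337-5p (0.89), miR-323-5p (0.87), miR-191-5p (0.86) and miR-1843a-3p (0.86). None of these 5 was among those of the other 3p arm. With 8 points and 462 candidates, high correlations arise readily, and no test was made.

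Arm choice was nearly complete among the named reads of both hairpins. The 5p arm made up 0.141% ± 0.0911 of miR-221 reads and 0.218% ± 0.187 of miR-222 reads (n = 8). Reads on these hairpins without a miRNA name, at 116.2 and 143.8 CPM, are not counted here, and their arm was not determined. As a yardstick, among 74 miRNAs with both arms in the table and at least 1000 CPM, the rarer arm took 2.59% at the median. Counted from mean CPM, the share was 0.1245% for miR-221 and 0.2109% for miR-222. Only 7 of the 74 had a lower share than miR-221 and 10 a lower share than miR-222. In single libraries the 5p share of miR-221 ran from 0.0149% (95% Wilson interval 0.00581% to 0.0384%) in ko replicate 3 to 0.280% (0.211% to 0.371%) in het replicate 3. That of miR-222 ran from 0.0365% (0.0167% to 0.0796%) in het replicate 2 to 0.650% (0.466% to 0.907%) in het replicate 1. The lowest and highest intervals do not overlap in either hairpin. The log2 ratio of miR-221-5p to miR-221-3p averaged -9.20 ± 0.78 for the het and -10.55 ± 1.56 for the ko mice (exact permutation p = 0.171, n = 4 each). Their difference of -1.36 was -0.64 without ko replicate 3 and -2.42 without the 2 deepest libraries. For miR-222 it averaged -9.50 ± 1.71 for the het and -8.97 ± 0.31 for the ko mice (exact permutation p = 0.6, n = 4 each). This difference of 0.53 was -0.11 without het replicate 2 and 1.28 without het replicate 1 (exact permutation p = 0.0286, adjusted p = 0.257). Over 9 ratios and isoform measures compared between genotypes, the adjusted p was at least 0.932.

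Reads of each 3p arm mostly shared a start and differed in where they ended. The 3 most abundant reads of each 3p arm are shown for this, with a capital where the read differs from the hairpin:
miR-221-3p, 22 nt: agctacattgtctgctgggttt
miR-221-3p, 23 nt: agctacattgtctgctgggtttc
miR-221-3p, 23 nt with a tail: agctacattgtctgctgggtttT
miR-222-3p, 23 nt: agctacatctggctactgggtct
miR-222-3p, 21 nt: agctacatctggctactgggt
miR-222-3p, 22 nt: agctacatctggctactgggtc
The 22 nt read of miR-221-3p, 1 base shorter than the RefSeq form, was at 4670 ± 1875 CPM, 47.9% of the arm. The full 23 nt form was at 2333 ± 961 CPM (23.9%) and the tailed form at 621.5 ± 240.8 CPM (6.37%). miR-222-3p had a pair of main reads of nearly the same level, the 23 nt RefSeq form at 3395 ± 878 CPM (27.4%) and the 21 nt form at 3333 ± 883 CPM (26.9%), while the 22 nt form between them was at 1042 ± 266 CPM (8.41%).

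miR-221-3p therefore had a single peak of read length and miR-222-3p had a double one. Of miR-221-3p reads, 49.9% ± 3.38 were 22 nt and 32.8% ± 2.64 were 23 nt long (n = 8). Of miR-222-3p reads, 29.5% ± 5.01 were 21 nt, 11.3% ± 1.02 were 22 nt and 33.1% ± 3.81 were 23 nt. In every library the 22 nt share of miR-222-3p was below those of 21 and 23 nt. The main read took 20.03 ± 3.45 percentage points more of miR-221-3p than of miR-222-3p, in 8 of 8 libraries (exact sign-flip test p = 0.00781, the smallest that 8 libraries allow, adjusted p = 0.0182). This contrast was chosen after the values were seen, and the main reads were picked in these same libraries, so its p gives no independent support. Mean length did not show the difference, at 22.33 ± 0.0457 nt for miR-221-3p and 22.24 ± 0.183 nt for miR-222-3p, and the contrast of 0.087 ± 0.165 nt did not pass (exact sign-flip test adjusted p = 0.21).

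**Figure D4:**
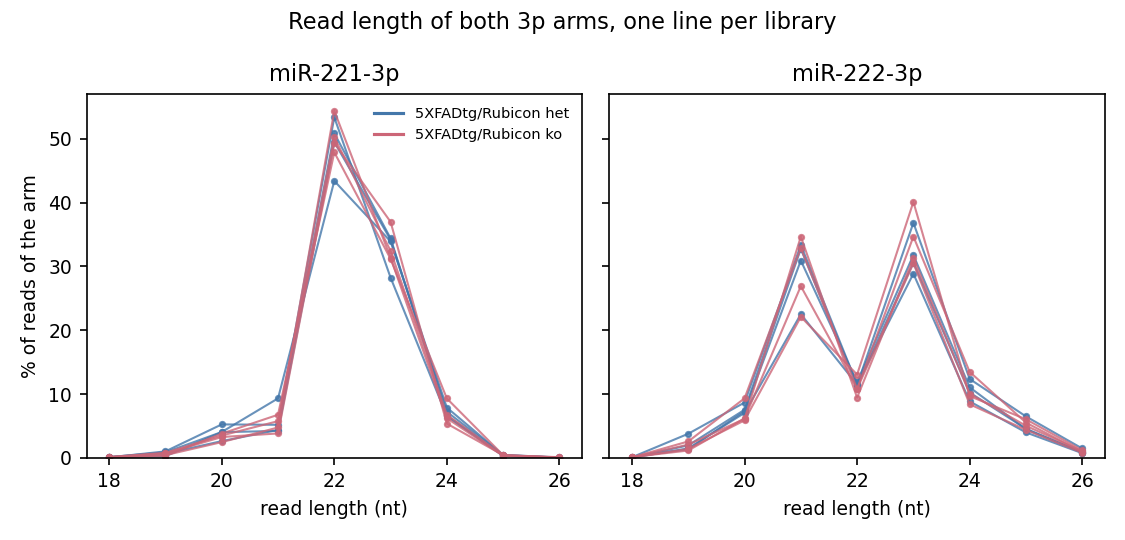
Percent of the reads of miR-221-3p (left) and miR-222-3p (right) at each read length from 18 to 26 nt, 1 line per library, blue for het and red for ko. All 8 libraries peak at 22 nt for miR-221-3p and have peaks at 21 and 23 nt with a dip at 22 nt for miR-222-3p.

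Which of the main miR-222-3p reads led varied between libraries. The ratio of the 23 nt to the 21 nt read was 1.48, 0.826, 0.776 and 0.933 in het replicates 1 to 4 and 1.78, 0.823, 1.18 and 0.80 in ko replicates 1 to 4. The 23 nt read led in het replicate 1 and in ko replicates 1 and 3. The ratio of the 23 nt to the 22 nt read of miR-221-3p stayed below 1 in all 8 libraries, from 0.354 to 0.605. Genotype did not separate the lengths: miR-221-3p reads averaged 22.32 ± 0.063 nt for the het and 22.34 ± 0.022 nt for the ko mice (exact permutation p = 0.571, n = 4 each). miR-222-3p reads averaged 22.21 ± 0.198 and 22.28 ± 0.190 nt (exact permutation p = 0.657, n = 4 each).

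Isoforms were also tested one by one. Of the 3299 reads whose mean reached 10 CPM, 25 were of miR-221-3p, 37 of miR-222-3p and 0 of the 5p arms. They carry 97.4% and 97.0% of the CPM of their arms. In the limma fit 0 of them passed after adjustment and 0 before it, where 0.485% and 5.3% of all reads tested did. The smallest limma adjusted p was 0.973 for either arm. Of the miR-221-3p reads 19 had a positive and 6 a negative log2 fold change, with a median of 0.30 and a range from -0.59 to 1.06. Of the miR-222-3p reads 18 were positive and 19 negative, with a median of -0.03 and a range from -0.95 to 0.78. The median over all reads tested was -0.02. Reads of 1 arm share their source and are not independent of one another. The log2 fold change was 0.35 (SE 0.34) for the 22 nt read of miR-221-3p, and 0.12 to 0.62 on leaving out 1 library. The 23 nt read of miR-222-3p had 0.06 (SE 0.28) and its 21 nt read -0.10 (SE 0.30), and the limma adjusted p-values of these reads were 0.973, 0.988 and 0.985.

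Tails, bases at the 3′ end that the hairpin does not encode, also told the arms apart. A mismatch within the last 3 bases was present in 17.0% ± 1.44 of miR-221-3p reads and 15.7% ± 1.54 of miR-222-3p reads (n = 8). Between genotypes it was 17.2% ± 1.23 for het against 16.9% ± 1.79 for ko on miR-221-3p (exact permutation p = 0.8, n = 4 each). On miR-222-3p it was 15.8% ± 2.03 against 15.5% ± 1.17 (exact permutation p = 0.83, n = 4 each). The excess of 1.38 ± 1.75 percentage points in miR-221-3p did not pass (exact sign-flip test p = 0.0703, adjusted p = 0.0984). Counting only a mismatch in the very last base, it was 2.80 points with an adjusted p of 0.0137 in the same exact test.

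The kind of base differed more than the amount. On miR-221-3p, single non-matching end bases were mostly U, in 9.97% ± 0.849 of all reads of the arm, with A in 2.81% ± 0.967. On miR-222-3p they were mostly A, in 7.10% ± 0.618, with U in 2.21% ± 0.263. C and G were rare, at 0.459% ± 0.192 and 0.395% ± 0.148 on miR-221-3p and 0.203% ± 0.0826 and 0.205% ± 0.0573 on miR-222-3p. The 2 most abundant reads with such an end in each arm show it, the end base in capitals:
miR-221-3p with U, 23 nt: agctacattgtctgctgggtttT
miR-221-3p with U, 24 nt: agctacattgtctgctgggtttcT
miR-222-3p with A, 23 nt: agctacatctggctactgggtcA
miR-222-3p with A, 21 nt: agctacatctggctactgggA
They were at 621.5, 332.5, 265.5 and 255.7 CPM. Both miR-222-3p reads end where the hairpin itself has U, so a U added there cannot be seen, and the same holds for A where the hairpin has A. At the ends where the hairpin has C or G, at which both can be seen, U exceeded A 4.49-fold on miR-221-3p (log2 2.17 ± 0.634, n = 8). On miR-222-3p it exceeded A 1.23-fold (log2 0.30 ± 0.305), so the excess of A on miR-222-3p was not present at these ends. The arms still differed, by 1.87 ± 0.55 in log2, with the ratio higher on miR-221-3p in 8 of 8 libraries (exact sign-flip test p = 0.00781, adjusted p = 0.0182). This contrast, too, was chosen after the values were seen, so its p gives no independent support.

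**Figure D5:**
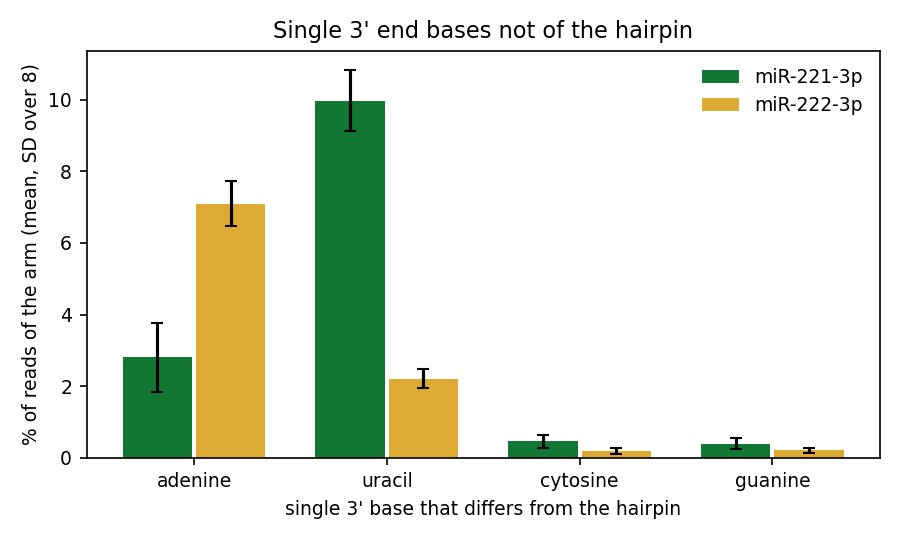
Percent of the reads of miR-221-3p (green) and miR-222-3p (yellow) that end in 1 base not of the hairpin, by that base, as mean and SD over 8 libraries. U leads on miR-221-3p at 9.97% and A leads on miR-222-3p at 7.10%, before ends at which 1 of the bases cannot be seen are set aside.

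The 5′ end, which sets the seed, was held more tightly. Of miR-221-3p reads 1.22% ± 0.259 and of miR-222-3p reads 2.56% ± 0.237 started elsewhere than at the main position. The difference of -1.34 ± 0.443 percentage points had the same sign in 8 of 8 libraries (exact sign-flip test p = 0.00781, adjusted p = 0.0182). This contrast and those of the main read and of U against A kept their sign in 6 of 6 libraries without the 2 deepest, where the exact sign-flip adjusted p was 0.0547 and 6 libraries allow no p below 0.0313. The genotypes had 1.23% and 1.21% for miR-221-3p (exact permutation p = 1.0, n = 4 each) and 2.62% and 2.51% for miR-222-3p (exact permutation p = 0.571, n = 4 each). Starts 2 bases upstream were found on miR-222-3p, in 0.978% of its CPM. Of miR-221-3p, 98.6% of CPM kept the main seed, more than in 92 of the 98 miRNAs of at least 1000 CPM, whose median was 97.0%. For miR-222-3p it was 97.3%, more than in 58 of them.

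miR-222-5p, by contrast, had 2 main starts 3 bases apart, which give it different seeds. The leading read of each main start is shown, with the 6mer seed (positions 2 to 7) in capitals:
upstream start: gGCTCAGtagccagtgtagatcc
later start: tCAGTAGccagtgtagatcctg
The first was at 8.15 ± 9.05 CPM and the second at 3.85 ± 3.36 CPM (n = 8). The 4 reads with the upstream start made up 57.1% of the CPM of the arm and the 4 with the later start 42.0%. The remaining 1 of 9 sequences, starting 2 bases after the upstream start, held 0.88%. Counted as reads, of which the deep ko replicate 2 gave 369 of 787, the order was the other way, with 332 upstream and 447 later starts. The upstream start was found in 64.7%, 50%, 38.6% and 62.5% of reads in het and in 49.4%, 25.8%, 71.2% and 47.4% in ko. ko replicate 2 (95% Wilson interval 21.6% to 30.4%) and ko replicate 3 (62.2% to 78.8%) lay at the ends with intervals that do not overlap. In the remaining libraries, with 6 to 156 reads of the arm, the intervals overlapped each other. miR-221-5p had a single start, and its main read of 22 nt, acctggcatacaatgtagattt, was at 6.08 ± 3.57 CPM, 49.98% of the arm.

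The study scored each 6mer seed by the viability of cells that received a small RNA with this seed, and it counts a low score as the mark of a toxic guide, one whose seed kills cells by silencing genes they need to survive. The seed of both 3p arms, GCUACA, had a viability of 63.7. It was the tenth most abundant of 3427 seeds, with 2.19% of all reads. miR-222-3p carried 55.1% of it and miR-221-3p 43.9%. Reads without a miRNA name carried 1.0%, and the only other miRNA name was miR-187-5p, at 2.45 ± 3.18 CPM, so the family alone set the level of this seed. By library it was at 1.88%, 1.67%, 2.03% and 2.84% of reads in het and 2.64%, 1.79%, 2.88% and 1.79% in ko. The genotypes overlapped, and the log2 fold change of 0.10 (SE 0.25, 95% interval -0.43 to 0.64) had a limma adjusted p of 0.996, where 0.303% of 990 seeds passed and 5.76% had a p under 0.05 before adjustment.

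The other strands of the family had other scores. The seed of miR-221-5p, CCUGGC, had a viability of 12.9, the lowest among the members, but was carried by only 12.2 CPM of miR-221-5p. The seeds of miR-222-5p had viabilities of 77.3 (GCUCAG, upstream start), 75.4 (CAGUAG, later start) and 78.2 (UCAGUA, in 0.88% of the arm). Shifted 3p reads had AGCUAC (51.4), CUACAU (73.8) or, on miR-222-3p, CAGCUA (73.0), each in less than 1% of its arm. The scores come from an earlier screen in cultured cells and were not measured in these brains.

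Because the family is known from vessel walls, miRNAs of vascular cells were set beside it. The vascular list held 11 names, of which miR-199a-3p was left out, as it is listed jointly with miR-199b-3p. That joint name was at 111 CPM with a log2 fold change of -1.03. Of 10 vascular miRNAs tested 0 passed in either direction, where 1.3% of all miRNAs did, and their median log2 fold change was -0.34 against -0.09 over all miRNAs. The most abundant were miR-23a-3p, with 5960 ± 382 CPM in the het and 6965 ± 1350 CPM in the ko mice, and miR-126a-3p, known from endothelium, with 5592 ± 2771 and 5644 ± 2182 CPM (n = 4 each). Their log2 fold changes were 0.21 and 0.10 (limma adjusted p = 0.975 each), while 7 of the 10 were negative. Before adjustment 2 of the 10 had a p under 0.05, where 7.34% of all miRNAs did, namely miR-214-3p (log2 fold change -1.99, limma adjusted p = 0.175) and miR-143-5p (-1.27, limma adjusted p = 0.578), both named after their values were seen. Of 10 neuronal, 4 oligodendrocyte and 8 blood or microglial miRNAs 0 passed, with medians of 0.14, -0.40 and -0.15, and 1 of each list had a p under 0.05 before adjustment. Of 6 epithelial miRNAs tested, 4 of which had such a p, 3 fell and 0 rose: miR-200a-3p, miR-200b-3p and miR-429-3p, with log2 fold changes of -3.80, -2.86 and -3.98 (limma adjusted p = 0.000534, 0.0313 and 0.000127). Over all 5 lists 3 miRNAs passed, and 5 did without ko replicate 3. Only 2 did by edgeR, without the 2 deepest libraries, or without het replicate 1 or 4 or ko replicate 1 or 2. The summed level of the 7 epithelial miRNAs was 2249 to 8555 CPM in het and 225.6 to 1794 CPM in ko, without overlap. Both 3p arms of the family overlapped between the genotypes in these same libraries, and the part of epithelial RNA in their levels was not tested.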

How the data were processed

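Argonaute-bound RNA, cut from a gel at a nominal 19 to 35 nt per the labels, was sequenced from 8 mice, 4 per genotype. Sample titles gave the genotype and replicate number. The deposited values are CPM, scaled by the authors with their SPOROS pipeline, 1 line per read sequence, after trimming (Trim Galore, per the submitters' processing notes) and removal of rare reads, so that each sequence has at least 8 reads over the libraries. This filter can lose more from shallow libraries, which was not measured here. The deposited seed viability score is the authors' mean over 3 mouse cell lines. Trim Galore and SPOROS are named without a version, and no genome build is given in the sources used here.

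CPM was summed by name, and 100% of values came out as whole reads (within 0.05 reads), 38191202 in all, from 509839 to 19878054 per library. Intervals are 95% Wilson intervals, the floor is 3 reads, and both cover counting error only. Names whose mean reached 10 CPM were tested on log2(CPM + 1) with limma 3.58.1 (R 4.3.3, trend and robust) and Benjamini-Hochberg adjustment. Ratios and shares were compared by exact two-sided permutation over 70 splits, and the 3p arms within libraries by exact two-sided sign-flip tests, added after the values were seen. Reads were placed on the RefSeq hairpins by their first 15 bases with at most 2 mismatches. 3 of the 4 mature names matched RefSeq entries. edgeR 4.0.16 and DESeq2 1.42.0 on recovered reads, pseudocounts of 0.1 and 10, filters of 1 and 100 CPM and none, median centring, read subsets, a replicate block and leaving out libraries were alternatives. Those for the sign-flip tests, the last-base mismatch and some for the cell type lists were added after seeing the data. The fits were tested on simulated data. Python 3.11.15, scipy 1.17.1, numpy 2.4.6, pandas 2.3.3 and matplotlib 3.10.9 were used.

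The members and lists were chosen with earlier results of these data known. Named were the 4 arms, their 3 most abundant reads, other names with the shared seed, the 5 miRNAs most correlated with each 3p arm, list members past the threshold and the 2 most abundant vascular ones. Tailed reads and the leading read of each main miR-222-5p start were named after their values were seen.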

Additional observations from a re-analysis of the deposited data

Results flagged for a closer look

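Libraries were compared within each genotype, and one stood apart where the distance to its closest neighbour, as a part of the range of all 4, exceeded Dixon's 95% critical value for 4 values. Of 28 groups of 4 libraries, 2 had such a library, and chance gives about 1.4, so these may be what chance would produce.

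miR-222-5p was at 47.69 CPM in ko replicate 3, against 19.85 CPM in the next ko library, a gap of 0.955 of the range. This rests on 111 reads. The same library had the highest share of the upstream start of miR-222-5p, at 71.2%, and the lowest level of miR-221-5p, at 1.72 CPM from 4 reads.

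In het replicate 1, the shallowest library, 18.83% of miR-222-3p reads had a 3′ end not of the hairpin, against 15.03% in the next het library, a gap of 0.853 of the range. The 23 nt read also led the 21 nt read in this library, with a ratio of 1.48.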

How the results depend on the processing

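None of the 4 arms and none of their reads passed in any alternative, with adjusted p-values of 0.709 to 0.993 for miR-221-3p, 0.473 to 0.988 for miR-221-5p, 0.878 to 0.997 for miR-222-3p and 0.802 to 0.993 for miR-222-5p. Median centring moved the log2 fold changes of all miRNAs by 0.22. The log2 fold change of miR-222-3p was 0.18 with centring, 0.10 by edgeR, 0.11 by DESeq2 and 0.0652 without the 2 deepest libraries. That of its 22 nt read was 0.0252 with centring, 0.0249 by edgeR and 0.0448 by DESeq2, and that of its 21 nt read was 0.11 without the 2 deepest libraries. There the share of miR-221-3p reads with another start differed by 0.138 points.

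Leaving out 1 library at a time gave log2 fold changes from 0.12 to 0.56 for miR-221-3p, from -1.22 to -0.36 for miR-221-5p, from -0.22 to 0.0718 for miR-222-3p, from -0.19 to 1.05 for miR-222-5p and from -0.0199 to 0.26 for the shared seed. For the 23, 21 and 22 nt reads of miR-222-3p they ran from -0.14 to 0.22, from -0.33 to 0.0625 and from -0.23 to 0.15. The negative end for miR-222-5p was reached without het replicate 2. Between genotypes, the log2 ratio of miR-221-5p to miR-221-3p differed by -1.86 to -0.64, that of miR-222-5p to miR-222-3p by -0.11 (without het replicate 2) to 1.28, mean length by -0.00268 to 0.0415 nt for miR-221-3p and by -0.00703 to 0.151 nt for miR-222-3p, 3′ ends not of the hairpin by -1.19 to 0.233 points for miR-221-3p and by -0.868 to 0.706 points for miR-222-3p, and other starts of miR-221-3p by -0.118 to 0.139 points. The log2 level of miR-221-3p minus miR-222-3p ran from -0.51 to -0.30, and 2 to 5 cell type miRNAs passed in place of 3.

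Without the 2 deepest libraries the contrasts between the 3p arms were -1.27 points for another start, 1.89 for the log2 ratio of U to A tails and 19.9 points for the main read, each in 6 of 6 libraries, with an adjusted p of 0.0547, where 6 libraries allow no p below 0.0313. With a mismatch in the last base only, the 3′ end contrast was 2.80 points and passed.

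Replicate numbers did not pair the libraries: the correlations of same-numbered deviations were 0.038, 0.291, -0.182 and 0.253, and not every library correlated best with its own number. edgeR called 4 and DESeq2 9 miRNAs in place of 6. With the replicate block 10 passed, none of them an arm of miR-221 or miR-222. The log2 fold changes were unchanged, at 0.30 for miR-221-3p, because a block balanced over the genotypes cannot move them. The cause of these differences between counts was not tested. A mean of at least 100 CPM left no value for the 5p arms. Depth limits the 5p arms most, at 4 to 369 reads per library.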

Other observations

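Some reads without a miRNA name were assigned to these hairpins by the annotation deposited with them, a count made after the members' values were known. On Mir221 there were 128 such sequences, at 116.2 ± 43.7 CPM, and on Mir222 161, at 143.8 ± 40.1 CPM (n = 8 each). They are not counted in the levels of the 4 arms. Of the 336 sequences named miR-222-3p, 333 were placed on the hairpin, as were all 218 named miR-221-3p. Reads that match the hairpin at every base were 29 sequences with 82.5% of the CPM of miR-221-3p and 42 sequences with 84.0% of the CPM of miR-222-3p. Reads ran from 18 to 27 nt for miR-221-3p and from 18 to 29 nt for miR-222-3p.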
